A study of Astyanax mexicanus with 6 samples.

Results

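Lipase genes encode the enzymes that cut fatty acids from stored and circulating lipids, and their RNA levels were compared between SFL, a cell line from the liver of surface fish of Astyanax mexicanus, and CFL, a cell line from the liver of Pachón cavefish. The genes were picked by symbol from a list of 10 lipase symbols (lpl, lipf, lipea, lipeb, lipca, lipg, lipa, pnpla2, pnpla3 and mgll), with letter case ignored. That list was chosen from earlier results on the same comparison of the same libraries, in which lipf, pnpla3 and lipeb were known to be higher in SFL and lpl higher in CFL. The differences between the lines are therefore given below as a description of these genes and not as evidence for them, and no p-value is given for a lipase gene of the list. Of the 10 symbols, 9 matched 11 genes of the 27420 in the table, since lpl (once as LPL) and lipf each named 2 genes. The gene lipa is not analysed here.

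Each line is represented by 3 bulk RNA-seq libraries. Both lines came from livers of fish about 5 months (about 150 days) old, and both were grown in a medium with insulin, epidermal growth factor and fish and bovine serum. In early passages it also held embryo extract, from surface fish for SFL and from Pachón fish for CFL. The Pachón fish were starved before dissection and the surface fish were not, and the paper describes each line as a clonal population, so the libraries are taken here as repeated cultures and not as separate fish. By their descriptions, replicate 1 is from passage 45 (SFL) or 50 (CFL), and the other replicates are from passage 46 (SFL) or 51 (CFL). The paper describes CFL as hyperdiploid with B chromosomes and proposes that its donor was male. SFL had the normal chromosome count, and its sex could not be tested. Line, starvation, embryo extract, clone, chromosome number, any difference in sex and passage number cannot be told apart. P-values here measure only the spread between cultures of a line.

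The values are TPM, in which the reads assigned to a transcript are divided by its length and scaled to a total of 1000000 in each library. Levels can therefore be set side by side between genes, but TPM keeps no read depth, so counting errors are unknown. Between 13254 and 13721 genes reached 1 TPM in a library. The label of liver cells was checked against hepatocyte markers, and 10 of the 16 matched marker genes were below 1 TPM in all 6 libraries. The regulator hnf4a was listed at 0 in 5 libraries and at 0.04 TPM in CFL replicate 3, and ttr was listed at 0 throughout. The summed level of the hepatocyte markers was 1.86 to 2.97 TPM in CFL and 68.5 to 121 TPM in SFL, of which rbp4 made 48.6, 110 and 68.9 TPM in SFL replicates 1, 2 and 3. In SFL, 4 marker genes reached 1 TPM in every library: rbp4, tfa (2.86 to 14.64 TPM), fgb (2.76 to 5.96 TPM) and apoa2 (1.12 to 3.69 TPM). In CFL only 1 did, tat, at 1.12 to 1.83 TPM against at most 0.17 TPM in SFL. Most hepatocyte markers were thus below 1 TPM, and the lines are called here by their names alone. For both lines the paper reports alanine aminotransferase activity and RNA of its genes. It also reports a set of genes found in liver tissue and the lines but not in muscle. These were not examined here.

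In vertebrates, lipases fall into families with separate places of action. Members of the lipoprotein lipase family are secreted and work on lipoproteins at the vessel wall: lipoprotein lipase (lpl) cuts triglycerides, endothelial lipase (lipg) mostly cuts phospholipids of high-density lipoproteins, and hepatic lipase (lipca) is in mammals a product of hepatocytes. Acid lipases, to which the gastric lipase lipf and the lysosomal lipase lipa belong, work at low pH. Neutral lipases inside the cell empty lipid droplets in steps. Adipose triglyceride lipase (pnpla2) cuts the first fatty acid, hormone-sensitive lipase (here the copies lipea and lipeb) acts on the diglyceride, and monoglyceride lipase (mgll) releases the last fatty acid. The related protein pnpla3 sits on lipid droplets and is known in humans for its link to fatty liver.

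The lipase genes did not differ between the lines in a single direction. Genes of the intracellular neutral lipases pnpla2, pnpla3, lipeb and mgll and the acid lipase gene lipf were higher in SFL. By contrast, lpl and lipg of the lipoprotein lipase family had their higher means in CFL. For lipg the libraries of the lines overlapped. The other genes of the lipoprotein lipase family, LPL (at most 1.13 TPM) and lipca (at most 0.12 TPM), were low and had their higher means in SFL. lipea was at like levels in both lines. The change was largest on the TPM scale for lipf (14.7-fold), pnpla3 (15.4-fold) and pnpla2 (6.77-fold) among genes above 0.4 TPM in each library, and lpl was 5.97-fold higher in CFL.

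**Figure D1:**
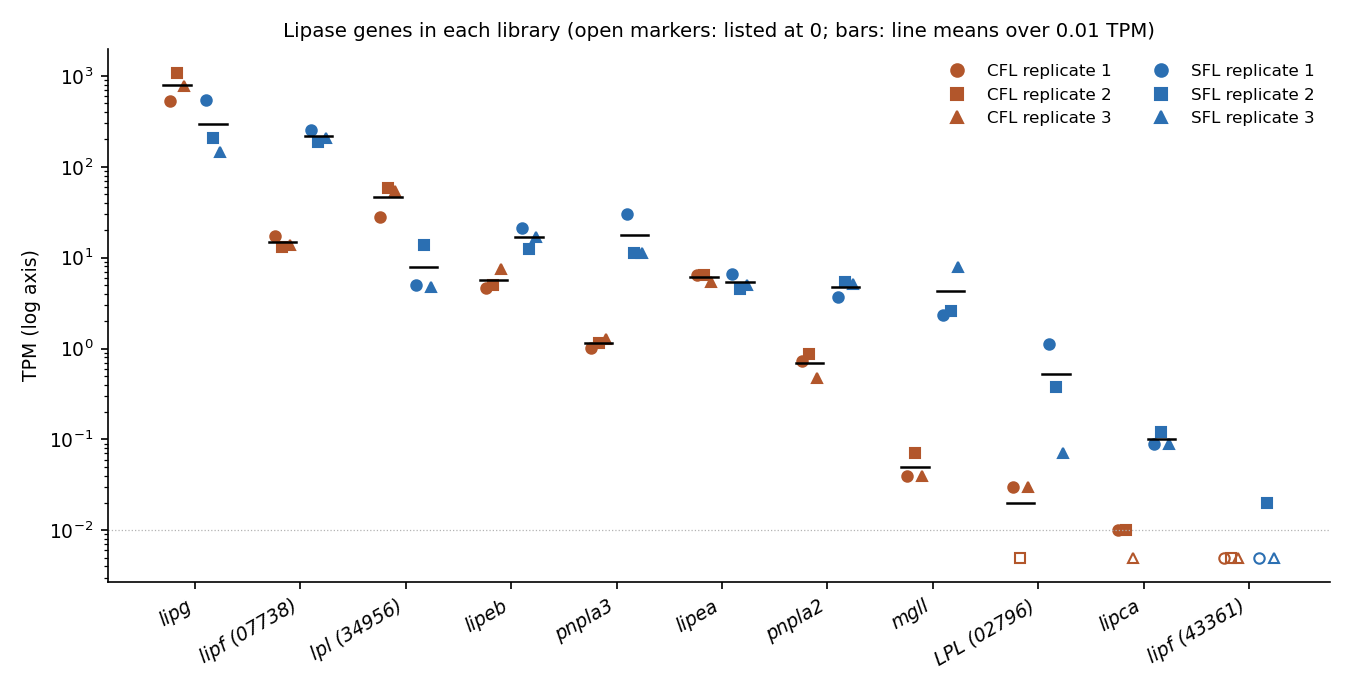
TPM of the 11 lipase genes in each library (log axis), with CFL in orange and SFL in blue. Points are libraries, bars are line means, open markers are libraries listed at 0, and the digits in brackets are the end of the gene identifier for symbols that name more than one gene. The SFL points of lipf lie between 186 and 254 TPM, above CFL points of 13.2 to 17.1 TPM, and the points of lipea and lipg overlap between the lines.

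Of the lipoprotein lipase family, lipg (ENSAMXG00000006007) was the most abundant lipase gene in both lines by its mean. CFL replicates 1, 2 and 3 held 532, 1064.5 and 769 TPM, and SFL replicates 1, 2 and 3 held 538, 209 and 146 TPM (values of single libraries below keep this order of replicates). SFL replicate 1 was as high as the lowest CFL library, so the lines overlapped, while SFL replicates 2 and 3 lay below all CFL libraries. The CFL mean was 789 ± 267 TPM and the SFL mean 298 ± 211 TPM (SD, n = 3 for each), which put lipg at rank 181 of the 27420 genes in CFL and at rank 439 in SFL. Its log2 fold change of SFL over CFL on the scale of log2(TPM + 1), which is used for all fold changes below, was -1.57 ± 0.50 (SE). It did not pass the thresholds of the fit as reported, but it did when SFL replicate 1 was left out (-2.11) or when passages 46 and 51 alone were compared (-2.37). It also passed with a pseudocount of 0.1 (-1.58), with a filter of 1 TPM in 3 libraries (-1.57) and with median-ratio scaling (-1.68). It was thus called in 5 of the 13 alternatives to the fit as reported, and in 1 of the 6 fits that lacked a library.

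The lipoprotein lipase gene lpl (ENSAMXG00000034956) went the same way at lower levels, with 27.85, 58.1 and 53.7 TPM for CFL against 4.95, 13.75 and 4.71 TPM for SFL. All CFL libraries were above all SFL libraries, with CFL replicate 1 the lowest of CFL and SFL replicate 2 the highest of SFL. The CFL mean was 46.5 ± 16.3 TPM and the SFL mean 7.80 ± 5.15 TPM (SD, n = 3 for each), with a log2 fold change of -2.51 ± 0.45 (SE). lpl made 4.97%, 5.17% and 6.52% of the summed lpl and lipg TPM in the CFL libraries and 0.911%, 6.18% and 3.12% in the SFL libraries. These shares overlapped between the lines, so within a library the balance of the lpl and lipg genes did not separate SFL from CFL.

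The other genes of this family stayed near 0 in CFL and low in SFL. A second lipoprotein lipase gene, listed as LPL (ENSAMXG00000002796), gave 0.03, 0 and 0.03 TPM for CFL and 1.13, 0.38 and 0.07 TPM for SFL. It went the opposite way to lpl, with a log2 fold change of 0.52 ± 0.24 (SE) that was 1.96 with a pseudocount of 0.1, and its level in SFL rested on replicate 1. The hepatic lipase gene lipca (ENSAMXG00000012304) stayed at or below 0.12 TPM in every library, with 0.01, 0.01 and 0 TPM for CFL and 0.09, 0.12 and 0.09 TPM for SFL. It did not reach the filter of 0.2 TPM and was not tested. Whether reads were shared between the lpl and LPL genes, or between the lipf genes, is not given in the sources used here.

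The acid lipase gene lipf (ENSAMXG00000007738) had the widest gap between the lines of the lipase genes, relative to the spread of the cultures. The CFL libraries gave 17.1, 13.2 and 13.8 TPM and the SFL libraries 254, 186 and 206 TPM. Replicates of each line were close together, with the highest 1.3 times the lowest in CFL and 1.37 times in SFL. The CFL mean was 14.7 ± 2.12 TPM and the SFL mean 216 ± 35.0 TPM (SD, n = 3 for each), with a log2 fold change of 3.78 ± 0.19 (SE). In rank among all genes, lipf moved from 5644 in CFL to 609 in SFL, where it was next to lipg. The other gene with the symbol lipf (ENSAMXG00000043361) was listed at 0 in 5 libraries and at 0.02 TPM in SFL replicate 2.

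Among the intracellular lipases, the droplet gene pnpla3 (ENSAMXG00000029618) read 1.02, 1.16 and 1.26 TPM for CFL against 30.3, 11.25 and 11.35 TPM for SFL. CFL libraries were near-equal, whereas SFL replicate 1 was 2.7 times the lowest SFL library. The CFL mean was 1.15 ± 0.121 TPM and the SFL mean 17.6 ± 11.0 TPM (SD, n = 3 for each), with a log2 fold change of 2.97 ± 0.38 (SE) that was 2.52 without SFL replicate 1 and 3.67 with a pseudocount of 0.1.

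The adipose triglyceride lipase gene pnpla2 (ENSAMXG00000037594) was below 1 TPM in every CFL library, at 0.73, 0.88 and 0.48 TPM, while the SFL libraries gave 3.70, 5.33 and 5.12 TPM. It was above 3 TPM in every SFL library, and the mean was 0.697 ± 0.202 TPM for CFL and 4.72 ± 0.887 TPM for SFL (SD, n = 3 for each). Its log2 fold change was 1.75 ± 0.19 (SE), and 2.61 with a pseudocount of 0.1. Unlike pnpla3, it was lowest in SFL replicate 1. pnpla3 made 58.3%, 56.9% and 72.4% of the summed pnpla3 and pnpla2 TPM in CFL and 89.1%, 67.9% and 68.9% in SFL, so these shares overlapped between the lines.

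The hormone-sensitive lipase genes behaved unlike each other. lipea (ENSAMXG00000009583) read 6.50, 6.49 and 5.40 TPM for CFL and 6.53, 4.47 and 5.06 TPM for SFL, with overlapping lines and a log2 fold change of -0.18 ± 0.20 (SE). lipeb (ENSAMXG00000015332) read 4.68, 5.05 and 7.45 TPM for CFL and 21.0, 12.35 and 16.85 TPM for SFL, with every SFL library above every CFL library and a log2 fold change of 1.39 ± 0.26 (SE). The share of lipeb in the summed TPM of the pair, which no scaling between libraries can change, was 41.9%, 43.8% and 58.0% in CFL and 76.3%, 73.4% and 76.9% in SFL. In CFL the copies were therefore at like levels, and in SFL lipeb was the higher copy in each library. When passages 46 and 51 alone were compared, lipeb had a log2 fold change of 1.11 and was no longer called. This comparison held only replicates 2 and 3 of each line, and over all genes calls higher in SFL went from 2168 to 1698.

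The monoglyceride lipase gene mgll (ENSAMXG00000039283) was near 0 in CFL, at 0.04, 0.07 and 0.04 TPM, against 2.34, 2.58 and 7.87 TPM for SFL. SFL replicate 3 stood above the other SFL libraries, the reverse of pnpla3, for which SFL replicate 1 was the highest. The size of the difference depended on the pseudocount, because the CFL values lie far below 1 TPM. The log2 fold change was 2.17 ± 0.37 (SE) with a pseudocount of 1 and 4.64 with 0.1, and it was 1.72 without SFL replicate 3.

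**Figure D2:**
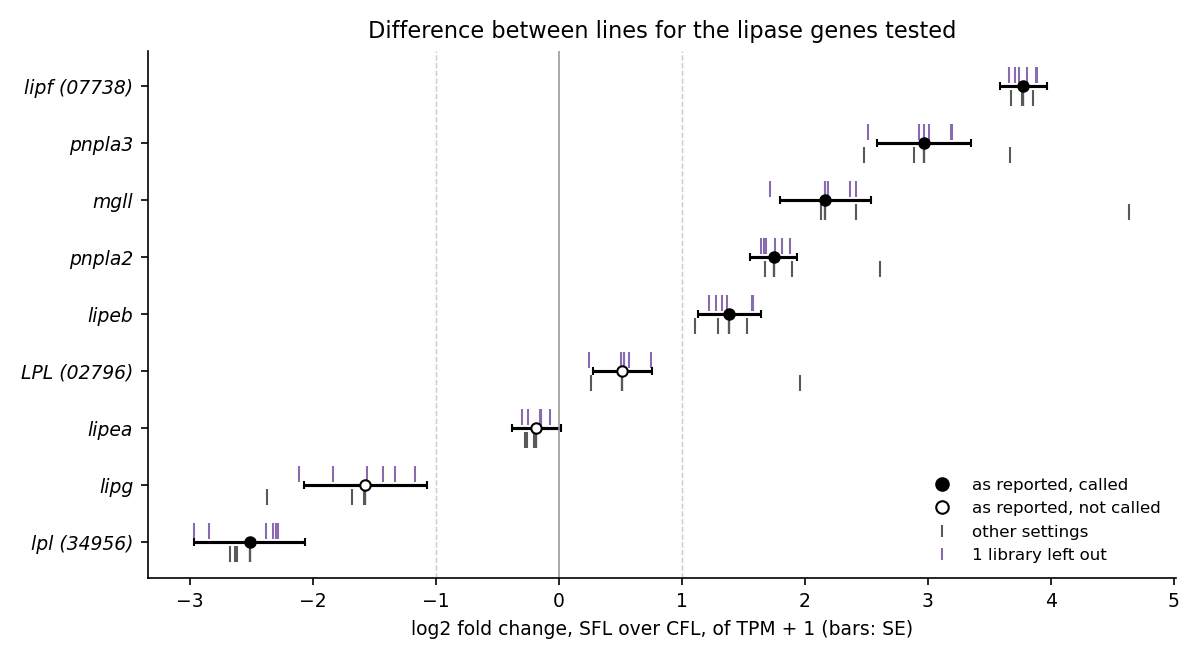
Log2 fold change of SFL over CFL on log2(TPM + 1) for the 9 lipase genes that passed the filter. Circles with bars are the values as reported with their SE (filled where called), grey ticks are other settings and purple ticks are fits without 1 library. lipf lies at 3.78 and lpl at -2.51, and no tick of a called gene crosses 0.

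Of the 11 lipase genes, 9 had at least 0.2 TPM in at least 1 library and were tested across all genes with limma, and lipca and the low lipf gene were not. A gene was called where its fold change was at least 2 and its adjusted p was below 0.05. Of the 9, lipf, pnpla3, mgll, pnpla2 and lipeb (5 genes) were called higher in SFL, against 11.7% of all 18489 genes tested, and lpl (1 gene) was called higher in CFL, against 8.88% of all genes. Every SFL library was above every CFL library for 6 of the 9 genes, the called genes and LPL, against 29.8% of all genes, and the reverse held for lpl, against 23.1% of all genes. Because the list was drawn up with these differences known, nothing is read from its counts. mgll and LPL passed the filter only through their SFL libraries. The median log2 fold change of the 9 genes was 1.39, beside 0.07 over all genes tested.

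The order of the lipase genes by level differed between the lines. In CFL, lipg was followed by lpl, lipf, lipea, lipeb, pnpla3, pnpla2 and mgll, and of these neighbours only lipea and lipeb overlapped in their ranges over 3 libraries. In SFL, the order was lipg, lipf, pnpla3, lipeb, lpl, lipea, pnpla2 and mgll. There lipg and lipf overlapped, each neighbour from pnpla3 down to mgll overlapped with the next, and a clear step lay only between lipf and pnpla3. lpl thus stood next to the top in CFL and among the low genes in SFL, while lipf came after lpl in CFL and next to lipg in SFL.

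Summed over the 11 genes, lipase TPM was 590.21, 1149.44 and 851.5 for CFL against 862.61, 445.43 and 403.44 for SFL, so the totals overlapped. What the sum was made of differed. The lipoprotein lipase family, nearly all of it lipg, made 94.9%, 97.7% and 96.7% of the sum in CFL and 63.1%, 50.1% and 37.4% in SFL. lipf made 1.15% to 2.9% in CFL and 29.5% to 51.1% in SFL. The 5 intracellular neutral lipase genes together held 12.97, 13.65 and 14.63 TPM for CFL against 63.87, 35.98 and 46.25 TPM for SFL, so the lowest SFL library was above the highest CFL library. As these are bulk cultures, fewer cells that express a gene and less RNA per cell cannot be told apart.

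**Figure D3:**
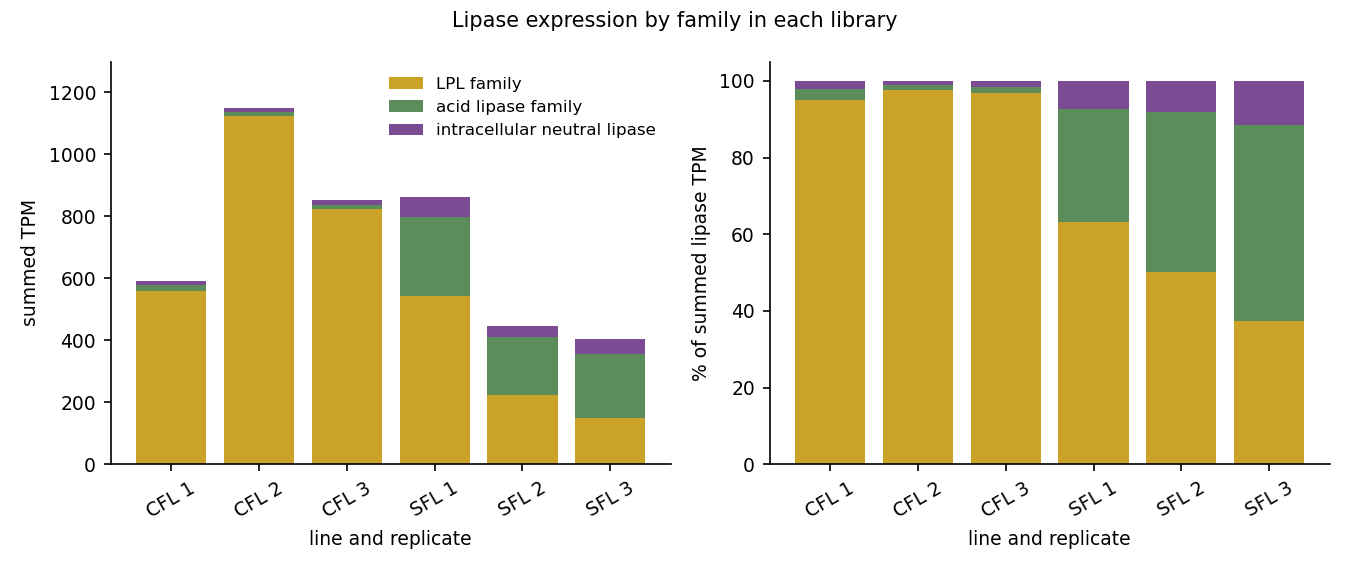
Summed TPM of the lipase genes in each library (left) and each family's share of that sum in percent (right), in stacked bars from 0. The lipoprotein lipase family makes at least 94.9% of each CFL bar and at most 63.1% of an SFL bar, where lipf takes most of the rest.

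The libraries of SFL differed among themselves for these genes. SFL replicate 1, the earlier passage, was the highest SFL library for 6 of the 9 genes tested (LPL, lipg, lipf, lipea, lipeb and pnpla3), beside 22.2% of all genes tested. lipg, pnpla3 and LPL were the genes for which it stood far above the other SFL libraries. In CFL, replicate 2 was the highest for 4 of the 9 genes (lipg, lpl, pnpla2 and mgll), beside 30.3% of all genes.

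Partners of the lipoprotein lipase family were taken as a list of genes for maturation, inhibition, activation and lipoprotein binding, of which 19 of 24 symbols were matched. This list and the partner lists below were drawn up with earlier results of these data known. Their counts and p-values are therefore a description and not independent evidence. Of 18 such genes tested, SFL had 3 higher calls (beside 11.7% of all genes) and CFL 1 (beside 8.88%), and the median log2 fold change was 0.15, beside 0.07 over all genes. At an unadjusted p below 0.05 in limma there were 4 genes higher in SFL (beside 26.0% of all genes) and 2 in CFL (beside 20.5%). In parentheses, log2 fold changes of SFL over CFL are given with their SE. lmf1, which matures lpl and lipg in the endoplasmic reticulum, averaged 8.76 ± 0.492 TPM for CFL and 10.3 ± 2.27 TPM for SFL (SD, n = 3 for each). It did not pass the test (limma: 0.19 ± 0.20 SE, adjusted p = 0.485). The inhibitor gene angptl4 stayed between 0.34 and 2.86 TPM in all libraries (limma: 0.05 ± 0.42 SE, adjusted p = 0.936). Its lines overlapped. The genes called higher in SFL were furina, a protease that can cleave lpl and lipg (limma: 2.03 ± 0.37 SE, adjusted p = 0.00664), the lpl activator apoc2 and the receptor gene lrp1ab (limma: 1.06 ± 0.29 SE, adjusted p = 0.0308). The heparan sulfate proteoglycan gene hspg2 was higher in CFL (limma: -1.33 ± 0.29 SE, adjusted p = 0.0131). The other copies furinb (limma: -0.28 ± 0.30 SE, adjusted p = 0.485) and lrp1aa (limma: 0.35 ± 0.55 SE, adjusted p = 0.647) overlapped between the lines and were not called. vldlr was higher in SFL by less than 2-fold on the scale of TPM + 1 (limma: 0.69 ± 0.21 SE, adjusted p = 0.0413).

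apoc2, the cofactor that lpl needs, ran against lpl in direction, with 3.83, 1.84 and 88.4 TPM for CFL against 450, 196 and 152 TPM for SFL. CFL replicate 3 was far above the other CFL libraries for apoc2 but not for lpl. It passed with all libraries (limma: 4.48 ± 1.25 SE, adjusted p = 0.0324) and had a value of 6.01 without CFL replicate 3, and with 1 library left out at a time it was called in 1 of 6 fits (limma adjusted p from 0.00147 to 0.11). Without the filter on low values its limma adjusted p was 0.0539. lrp1ab was likewise called in 1 of these fits, its log2 fold change was 0.96 with median-ratio scaling, under the threshold, and its limma adjusted p was 0.0728 when the replicate number was a block. hspg2 was not called without CFL replicate 1 (limma adjusted p = 0.0544).

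On the side of the lipid droplet, 25 of 39 listed symbols were matched, and of 21 genes tested SFL had 5 higher calls (11.7% over all genes) and CFL 0 (8.88% over all genes). The median log2 fold change was 0.56, beside 0.07 over all genes. A further 4 genes higher in SFL and 2 higher in CFL had a limma adjusted p below 0.05 but changed by less than 2-fold on the scale of TPM + 1. In plain TPM, ddhd1b and ddhd1a among them were 2.19-fold and 2.01-fold higher in SFL by their means. At an unadjusted p below 0.05 in limma there were 12 genes higher in SFL (beside 26.0% of all genes) and 2 in CFL (beside 20.5%). The droplet fusion gene cidec read 7.62, 13.99 and 9.24 TPM for CFL against 434, 199 and 38.8 TPM for SFL (limma: 3.78 ± 0.81 SE, adjusted p = 0.0129). The droplet coat gene plin2 ranked the SFL libraries likewise, with 31.8, 30.1 and 62.2 TPM for CFL and 448, 209 and 46.8 TPM for SFL, and its lines overlapped (limma: 2.04 ± 0.78 SE, adjusted p = 0.0855). Both ranked the SFL libraries as lipg did and unlike mgll, which was highest in SFL replicate 3. Without SFL replicate 3 the log2 fold change was 4.75 for cidec and 2.94 for plin2 (limma adjusted p = 0.000786 and 0.00545), and without SFL replicate 1 it was 3.02 and 1.32 (0.0231 and 0.184). cidec was not called without CFL replicate 1 (limma adjusted p = 0.0527).

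The other droplet genes called higher in SFL were lipid hydrolases. ddhd2, a triglyceride and phospholipid hydrolase, passed too (limma: 2.11 ± 0.46 SE, adjusted p = 0.0132) and was, like pnpla3, highest in SFL replicate 1, at 42.4 TPM. Without that replicate it was 1.55 (limma adjusted p = 0.00343), and without CFL replicate 1 it was not called (limma adjusted p = 0.0513). faah2a, a fatty acid amide hydrolase gene, rose from 1.11, 1.5 and 1.98 TPM in CFL to 9.13, 12.3 and 12.0 TPM in SFL (limma: 2.27 ± 0.21 SE, adjusted p = 0.000522) and was called in all 13 alternatives. abhd6a, a monoglyceride hydrolase like mgll, read 0.4, 0.89 and 8.09 TPM for CFL and 37.9, 29.2 and 7.27 TPM for SFL (limma: 2.88 ± 0.85 SE, adjusted p = 0.0384). Its lines overlapped, SFL replicate 3 was its lowest SFL library where mgll had its highest, and it was not called with the replicate block (limma adjusted p = 0.081). It was called in 2 of the 6 fits that lacked a library. aadac, a lipid esterase gene, was called in 1 of them (limma: 2.23 ± 0.65 SE with all libraries, adjusted p = 0.037). Without the filter on low values neither was called (limma adjusted p = 0.0627 for abhd6a and 0.0614 for aadac). The other copy abhd6b stayed at or below 0.2 TPM in every library and was not called (limma: -0.11 ± 0.08 SE, adjusted p = 0.331).

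**Figure D4:**
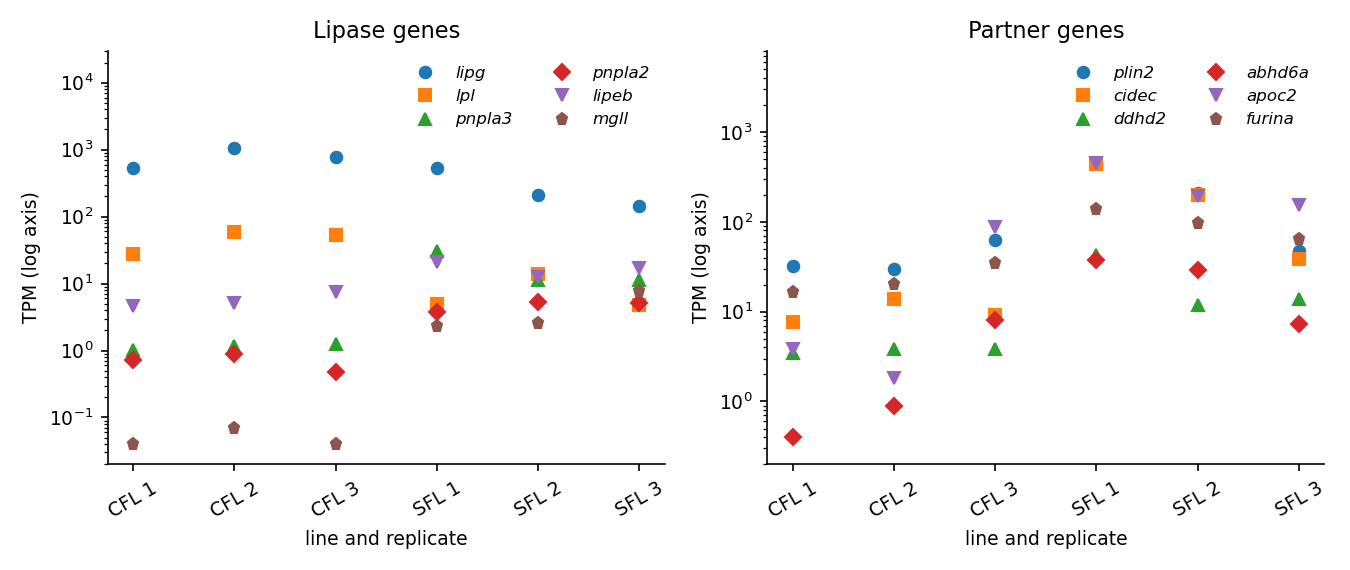
TPM (log axis) of 6 lipase genes (left) and 6 partner genes (right) in each library. Within SFL, lipg, plin2 and cidec are highest in replicate 1 and lowest in replicate 3 (434 and 38.8 TPM for cidec, whose points cover those of plin2 in SFL replicates 1 and 2), and mgll is highest in replicate 3, at 7.87 TPM.

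Genes of lysosomal lipid handling were also listed, since the family of lipf includes the lysosomal lipase lipa, and 24 of 25 symbols were matched. Whether lipf itself acts in lysosomes of these lines was not tested. Of 22 genes tested, SFL had 5 higher calls against 11.7% of all genes, CFL had 0 against 8.88%, and the median log2 fold change was 0.52 against 0.07. At an unadjusted p below 0.05 in limma, SFL was higher for 9 genes (26.0% over all genes) and CFL for 1 (20.5% over all genes). A further 2 genes higher in SFL had a limma adjusted p below 0.05 but changed by less than 2-fold on the scale of TPM + 1. The called genes were the lysosomal transcription factor genes tfeb (limma: 2.85 ± 0.30 SE, adjusted p = 0.000817) and tfe3a (limma: 1.96 ± 0.22 SE, adjusted p = 0.00105), the sphingolipid hydrolase genes smpd1 (limma: 2.25 ± 0.28 SE, adjusted p = 0.00153) and asah1b (limma: 1.66 ± 0.40 SE, adjusted p = 0.0192), and scarb2a, a lysosomal membrane protein gene (limma: 1.22 ± 0.27 SE, adjusted p = 0.014). asah1b was not called without CFL replicate 1 or CFL replicate 2 (limma adjusted p = 0.0612 and 0.0542). Its other copy asah1a went the other way, with 5.51, 4.93 and 4.98 TPM for CFL and 1.66, 1.54 and 4.77 TPM for SFL. It was not called (limma: -0.86 ± 0.33 SE, adjusted p = 0.0896). The copies tfe3b (limma: 0.12 ± 0.18 SE, adjusted p = 0.622) and scarb2c (limma: 0.09 ± 0.15 SE, adjusted p = 0.661) overlapped between the lines and were not called. The cholesterol exporter genes npc1 and npc2 did not pass (npc1 in limma: -0.09 ± 0.26 SE, adjusted p = 0.801, and npc2: 0.91 ± 0.33 SE, adjusted p = 0.0727), and npc2 passed without CFL replicate 3 (limma adjusted p = 0.0293). Neither did the genes named soat1, which encode a cholesterol esterifying enzyme, with limma adjusted p of 0.0709 and 0.146. The one with the lower p, highest like pnpla3 in SFL replicate 1 at 6.54 TPM, had a log2 fold change of 1.33. Without SFL replicate 1 it was 0.74, under the threshold (limma adjusted p = 0.0212), and it was called without SFL replicate 3 (1.70, limma adjusted p = 0.0334) and with a pseudocount of 0.1 (2.43, limma adjusted p = 0.03).

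Over the 3 partner lists, 13 of 61 genes tested were called higher in SFL (21.3%), beside 11.7% of all genes, and 1 in CFL, beside 8.88%. As these lists too were drawn up with earlier results known, nothing is read from their counts. Leaving out 1 library gave 7 to 13 genes in SFL, with 7 without CFL replicate 1 and 8 without CFL replicate 2. Over all genes tested, SFL calls went from 2168 to 1769 and 1716 in these fits, and to 1698 with the later passages alone. When passages 46 and 51 alone were compared, furina (limma adjusted p = 0.0547), apoc2 (0.215), cidec (0.0816), abhd6a (0.239), asah1b (0.0872), scarb2a (0.0853) and hspg2 (0.101) were not called. Of 7 further lipase genes tested, among them pnpla6, pnpla8, lipia and lipib, none was called in limma (beside 11.7% of all genes for SFL and 8.88% for CFL). Every SFL library was above every CFL library for 5 of the 7, beside 29.8% of all genes. The reverse held for 1, beside 23.1%. For pla1a, pnpla8 and pnpla6, the 3 genes with an unadjusted p below 0.05 (beside 26.0% of all genes higher in SFL), the limma adjusted p was also below 0.05. SFL was higher for them by less than 2-fold on the scale of TPM + 1. In plain TPM, pla1a was 2.6-fold higher in SFL, with means of 0.6 TPM for CFL and 1.56 TPM for SFL. pnpla8, for one, read 9.33, 9.86 and 8.91 TPM for CFL and 16.4, 15.7 and 17.3 TPM for SFL (limma: 0.75 ± 0.16 SE, adjusted p = 0.0114). The other gene of that symbol, listed as PNPLA8, averaged 2.88 TPM for CFL and 4.15 TPM for SFL and did not pass (limma: 0.38 ± 0.23 SE, adjusted p = 0.237).

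**Figure D5:**
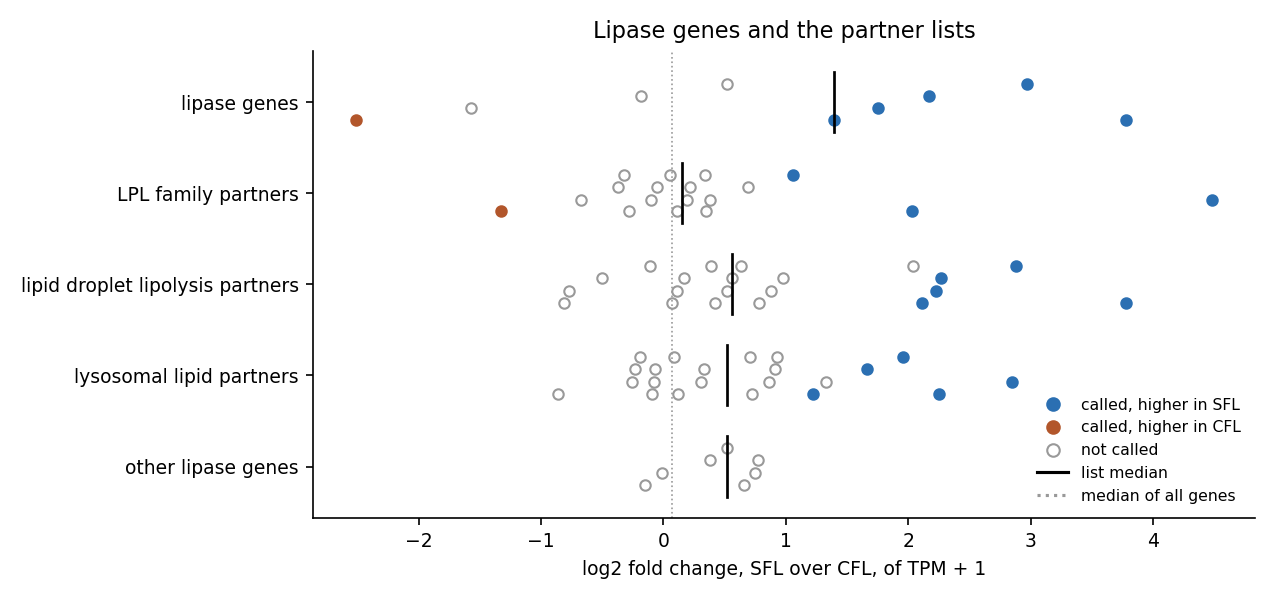
Log2 fold change of SFL over CFL for the tested genes of each list, with called genes filled (blue for higher in SFL, orange for higher in CFL), list medians as black bars and the median of all genes as a dotted line. Black bars lie at 1.39 for the lipase genes and between 0.15 and 0.56 for the other lists, and the dotted line at 0.07.

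Among the genes whose pattern over the 6 libraries was most like that of lpl, by Pearson's r of log2(TPM + 1), were sec23b (r = 0.999), sil1 (0.995), copb2 and nup37 (0.992 each). Those most like lipf were pex13, kcne4 (0.999 each), ppp3cca, shank3b and ldah (0.998 each). The 6 points fall into the lines, so a gene that differs between SFL and CFL in the same direction tends to score high. Of 11625 other genes with a symbol and a mean of at least 1 TPM, 819 had r over 0.9 with lpl and 1735 with lipf.

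Markers of other cells that make lipases were read in the same libraries. Of the adipocyte list, adipoqb stayed at or below 0.08 TPM, while lepa was at 157 to 194 TPM in CFL and at most 0.46 TPM in SFL, and cidec went the other way. The summed level of 5 matched adipocyte genes was 265 to 398 TPM in CFL and 65.7 to 463 TPM in SFL. Of 14 macrophage genes, 11 were below 1 TPM in all 6 libraries, among them spi1b, and the sum was 43.3 to 114 TPM in CFL and 25.4 to 43.9 TPM in SFL, most of it from 1 MPEG1 gene. Of 8 endothelial genes, pecam1 was listed at 0 throughout and 6 were below 1 TPM in all libraries, and the sum of 52.6 to 71.4 TPM in CFL and 76.3 to 90.3 TPM in SFL was nearly all kdrl. Of 10 pancreatic acinar genes, 7 were below 1 TPM in all libraries. The sum of 7.02 to 9.65 TPM in CFL and 380 to 571 TPM in SFL came mostly from 1 CPA1 gene, at 5.28 to 7.95 TPM in CFL and 379 to 569 TPM in SFL. A prss1 gene went the other way, at 1.03 to 1.71 TPM in CFL and 0.28 to 0.33 TPM in SFL. Biliary epithelium markers summed to 934 to 1206 TPM in CFL and 6438 to 9157 TPM in SFL, mostly from the keratin genes krt4, krt18a.1 and 1 krt8 gene. There epcam and sox9b were at or near 0, and cldn7b was at 0.27 to 0.42 TPM in CFL and at most 0.09 TPM in SFL. Stellate or fibroblast markers summed to 658 to 1269 TPM in CFL and 333 to 1422 TPM in SFL, with col1a2 at 578 to 1132 TPM and 106 to 882 TPM. Within that list pdgfra was at 18.9 to 23.8 TPM in CFL and 0.43 to 1.47 TPM in SFL, pdgfrb at 8.95 to 13.3 TPM and 0.26 to 1.41 TPM, and col1a1a went the other way, at 43.2 to 102.2 TPM and 194 to 386 TPM. The part of these genes in the lipase differences was not tested.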

How the data were processed

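RNA from 3 SFL and 3 CFL libraries (polyA, stranded, 75 bp single reads) was measured. The authors aligned reads with STAR 2.7.3a to a UCSC genome, whose assembly is not given in the sources used here, with Ensembl gene models, and RSEM gave the TPM per gene that the authors deposited. TPM keeps no read counts, so no count model was run, and lines were compared with limma 3.58.1 (lmFit, eBayes with trend, R 4.3.3) on log2(TPM + 1) of genes that reached 0.2 TPM in any library (1 or more), with Benjamini-Hochberg adjustment over all genes and a fold threshold of 2. Tables were made in Python 3.11.15 with pandas 2.3.3. The code was checked on simulated data.

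The lipase genes and partner lists were chosen with earlier results of these data known. 1 gene, lipt2, was taken off the lysosomal list after values were seen, since it is a lipoyltransferase. Genes named are all lipase genes, called list genes, a fixed set of partners (of which gpihbp1, abhd5a, abhd5b and g0s2 are not analysed here) and the 5 genes most like lpl and lipf. Other copies of called partner genes were added. Some genes that this rule names are not reported here. Alternatives were a pseudocount of 0.1, no filter, a filter of 1 TPM in 3 libraries, median-ratio scaling, no trend, the replicate block, later passages alone and each library left out. Sequences are not shown here.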

Additional observations from a re-analysis of the deposited data

How the results depend on the processing

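All called lipase genes kept their direction in all 13 alternatives. The count higher in SFL was 5 in each of them but the later passages alone, where it was 4 (without lipeb). The count higher in CFL was 2 (lpl and lipg) with a pseudocount of 0.1, with a filter of 1 TPM in 3 libraries, with median-ratio scaling, with the later passages alone and without SFL replicate 1, and 1 in the other alternatives, so it ran from 1 to 2 over the fits without a library. For partner genes, 13 higher in SFL became 8 with the later passages alone and 7 to 13 without a library, and 1 higher in CFL became 0 with the later passages alone and 0 to 2 without a library (0 without CFL replicate 1, and 2 without SFL replicate 3, where asah1a joined hspg2). The SFL count was 10 without the filter (apoc2, abhd6a and aadac lost), 15 with a pseudocount of 0.1 (ddhd1b and soat1 added) and 12 with median-ratio scaling (lrp1ab lost). Calls over all genes tested changed with the setting too. The later passages alone, with replicates 2 and 3 of each line, gave 1698 in SFL and 1138 in CFL, beside 2168 and 1642 as reported. Without CFL replicate 1 there were 1769 and 1397, and without CFL replicate 2 there were 1716 and 1278. With the replicate block, 11 partner genes were higher in SFL (lrp1ab and abhd6a lost) and all lipase calls were kept. Same-numbered libraries had correlations of -0.225, 0.078 and -0.0743 in their deviations from the line means. Libraries with unlike numbers had -0.0996 to 0.161. With means over 3 libraries, these values cannot decide whether the numbers pair the cultures. The log2 fold change of angptl4, near 0, turned sign with median-ratio scaling (-0.01) and without CFL replicate 3 (-0.34), SFL replicate 2 (-0.04) or SFL replicate 3 (-0.14), running from -0.34 to 0.43 over the fits without a library. That of npc1 turned sign without SFL replicate 3 (0.11) and ran from -0.35 to 0.11. The causes were not tested. A pseudocount of 0.1 raised the total of genes called higher in SFL from 2168 to 3187 and in CFL from 1642 to 2492. With median-ratio scaling these totals were 1934 in SFL and 1851 in CFL, so the background shares depend on the scaling. Values near 0 TPM, as for mgll in CFL, have no known depth, and their fold changes rest on the pseudocount.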
